A study of Mus musculus with 22 samples.

Results

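The 10 genes described here cover the entry of glucose into the cell, 7 enzyme genes of glycolysis and the kinase gene that controls the use of pyruvate. They were taken as a named list: the glucose transporter genes Slc2a1 and Slc2a3, the hexokinase genes Hk1 and Hk2, the phosphofructokinase genes Pfkl and Pfkp, then Aldoa, Pgk1, Ldha and Pdk1. All 10 of 10 were measured, among 19938 genes with a single symbol on Affymetrix mouse gene arrays. RNA came from 22 mouse samples, 12 of embryonic germ (EG) cells and 10 of embryonic stem (ES) cells, with 1 array each. EG cells are pluripotent lines grown out of primordial germ cells, here from embryos of day E8.5, and ES cells are pluripotent lines from early embryos.

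The samples formed 5 groups, and each sample is called a line below. EG FCS (n = 4, 1 female) was derived and kept in DMEM-F12 with fetal calf serum (FCS) and leukaemia inhibitory factor (LIF) on mouse embryonic fibroblast feeders. EG 2i (n = 4, 3 female) was derived directly in 2i, which is N2B27 medium with LIF, the MEK inhibitor PD0325901 and the GSK3 inhibitor CHIR99021, on laminin. EG 2is (n = 4, 2 female) spent 2 days in the serum condition and was then moved to 2i. ES FCS and ES 2i (n = 5 each, 2 female each) were grown in the same serum and 2i conditions. All groups carried the Oct4-delta-PE-GFP reporter transgene, on a mixed background that included 129SvEv. Medium, inhibitors and feeder layer changed together, so their parts in any difference cannot be told apart. The labels list sodium pyruvate among the supplements of the FCS medium and give no glucose content for either medium. All 10 ES arrays carry an EG cell-type label, while their titles and source names say ES, and they were analysed as ES. Per the series text ES lines were also switched between cultures, so some ES samples may be the same line in both. Separate cultures of a line are not described further, so a p-value reflects only how much these samples vary.

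Glycolysis splits glucose into pyruvate. Transporters of the Slc2a family let glucose in, hexokinases trap it by phosphorylation, and phosphofructokinase makes the committed step. Pyruvate then either becomes lactate through lactate dehydrogenase or enters mitochondria, where pyruvate dehydrogenase turns it into acetyl-CoA. Pyruvate dehydrogenase kinases such as Pdk1 switch that enzyme off by phosphorylation, and many of these genes are known targets of hypoxia-inducible factors. Pluripotent cells are known for strong glycolysis, and naive ones are known to respire more than primed ones.

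Levels are deposited log2 RMA values, on which 1 unit is a 2-fold difference, and levels of different genes cannot be set against each other. Values ran from 3.63 to 13.9 over the arrays, with array medians of 5.54 to 5.62, and arrays of a group correlated at 0.982 to 0.998. The pluripotency markers had mean levels of 10.49 to 10.89 in all lines. The feeder fibroblast markers had mean levels of 6.29 to 7.07 in FCS lines and 5.62 to 5.84 in 2i lines, and 1 of 21 in FCS and 3 of 21 in 2i stayed below background in every line. Background here is 4.88, the highest level of the Y-linked Eif2s3y in a female line, and 23.7% of genes had a mean below it. Of the 21 markers 12, 13 and 15 were called lower in EG 2i, EG 2is and ES 2i than in FCS lines, with 0, 0 and 2 called higher. Of all genes 12.5%, 12.9% and 14.9% were called lower in these comparisons, and 11.4%, 12.7% and 16.6% higher. Primitive endoderm markers were at 5.76 to 7.05 in FCS and 5.25 to 5.79 in 2i lines. The part of these other cells in the results below was not tested. In such bulk samples, fewer cells of a type and less RNA per cell cannot be told apart.

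Promoters are shown for the 4 genes on which the expression results turn most: Pdk1, which changed most, the pair Pfkl and Pfkp, which changed in opposite directions, and Ldha, which holds most matches and was called in no culture comparison. Each line is the 250 bases before a RefSeq transcript start (GRCm38.p6), read 5′ to 3′ on the gene's strand. Capitals mark ACGTG and GCGTG on either strand, which are cores of sites that hypoxia-inducible factors can bind, and CACGTG, the E-box, which contains ACGTG.
Pdk1, chr2:71872974-71873223, strand plus: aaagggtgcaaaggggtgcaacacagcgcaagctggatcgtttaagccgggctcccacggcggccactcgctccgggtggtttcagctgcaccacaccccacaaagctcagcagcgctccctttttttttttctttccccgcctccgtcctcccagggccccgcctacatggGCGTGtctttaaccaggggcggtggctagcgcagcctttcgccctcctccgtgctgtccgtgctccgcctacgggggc
Pfkl, chr10:78009808-78010057, strand minus: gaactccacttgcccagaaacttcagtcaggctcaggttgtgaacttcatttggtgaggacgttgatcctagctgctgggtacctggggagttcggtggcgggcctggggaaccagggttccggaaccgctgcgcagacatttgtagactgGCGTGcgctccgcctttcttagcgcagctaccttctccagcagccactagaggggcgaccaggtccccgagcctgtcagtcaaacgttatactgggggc
Pfkp, chr13:6648772-6649021, strand minus: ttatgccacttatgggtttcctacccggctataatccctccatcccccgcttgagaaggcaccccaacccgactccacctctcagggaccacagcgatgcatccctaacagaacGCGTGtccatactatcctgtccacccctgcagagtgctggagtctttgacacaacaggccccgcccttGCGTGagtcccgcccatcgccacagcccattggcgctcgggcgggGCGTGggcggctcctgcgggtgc
Ldha, chr7:46845554-46845803, strand plus: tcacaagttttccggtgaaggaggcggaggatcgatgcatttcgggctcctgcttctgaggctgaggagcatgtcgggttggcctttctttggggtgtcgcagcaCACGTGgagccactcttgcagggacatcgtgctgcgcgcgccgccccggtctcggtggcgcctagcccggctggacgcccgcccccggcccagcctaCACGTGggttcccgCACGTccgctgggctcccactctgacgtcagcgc
ACGTG occurred in 16.6%, GCGTG in 28.2% and CACGTG in 6.0% of the 32851 promoter windows of that length in the table. Pdk1 and Pfkl, which were lower in 2i, each held 1 GCGTG in the window shown. Pfkp, which was higher in 2i, held 3 GCGTG. Ldha held 5 ACGTG matches over both strands in the window shown, of which the 2 E-boxes count on both. Pdk1 and Ldha each have a further window that is not shown. That of Pdk1 held 0 ACGTG and 0 GCGTG, and that of Ldha held 0 ACGTG and 1 GCGTG. Of the 10 genes 9 had entries, with 14 windows in all, and 11 of these 14 held ACGTG or GCGTG, against 38.6% of all windows. Some genes have several windows, and 2 Aldoa windows overlap and hold the same match. The 14 are therefore not separate promoters, and their share was not tested. A match is a description of letters, and these arrays measured no binding.

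In EG cells 2i and serum lines were compared to see how the genes differ with culture. Pdk1, Pfkl and Slc2a1 were lower in 2i than in serum, and Pfkp was higher. Each difference was tested with limma over all 22 arrays, with terms for labelled batch and sex, so a fitted difference can depart from the plain difference of the means. A gene was called at a two-sided adjusted p under 0.05 over all 19938 genes. For EG 2i against EG FCS, 4 of 10 genes were called, against 23.9% of all genes. Of these 1 was higher, where 11.4% of all genes were, and 3 were lower, where 12.5% were. Their median difference was −0.30 on the log2 scale and that of all genes 0.01. For EG 2is against the same EG FCS lines, 4 of 10 were called, against 25.6% of all genes, with 1 higher and 3 lower beside 12.7% and 12.9% of all genes. For ES 2i against ES FCS, 6 of 10 were called, against 31.6%, with 2 higher and 4 lower beside 16.6% and 14.9%. The medians of the 10 genes were −0.13 in EG 2is and −0.20 in ES 2i, against −0.01 and 0.00 for all genes. EG 2i and EG 2is share the EG FCS lines as controls. No test was made of the list as a whole.

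**Figure D1:**
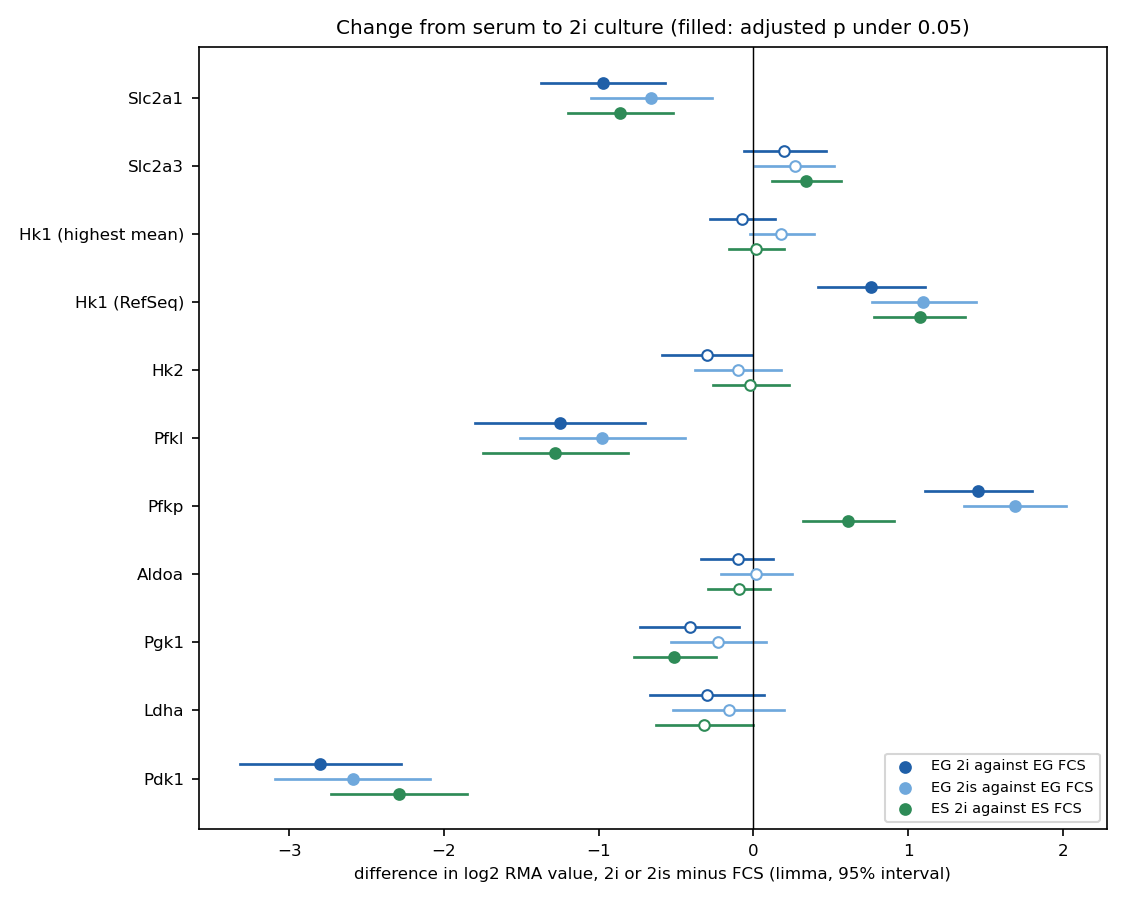
Fitted log2 differences of 2i or 2is lines from FCS lines (horizontal axis, limma, bars are 95% intervals) for each gene, with filled points where the adjusted p was under 0.05. Pdk1 lies farthest to the left in all 3 comparisons, and Pfkl and Pfkp lie on opposite sides of 0.

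Slc2a1 encodes the widespread basal glucose transporter GLUT1. It was at 11.91, 12.10, 11.85 and 11.75 in the EG FCS lines. The EG 2is lines had 11.71, 10.94, 11.15 and 11.04, and the EG 2i lines 10.50, 10.85, 10.75 and 11.37. No 2i or 2is line reached the lowest EG FCS line, although EG 2is line 1 came close to it. ES lines had 12.16, 12.20, 12.14, 11.91 and 11.98 in FCS and 10.79, 10.90, 11.59, 11.37 and 11.46 in 2i. Again the groups did not overlap. The fitted level was 1.96-fold lower in EG 2i (log2 −0.97, SE 0.19, adjusted p = 9.1e-04), 1.58-fold lower in EG 2is (−0.66, SE 0.18, adjusted p = 0.0114) and 1.81-fold lower in ES 2i (−0.86, SE 0.16, adjusted p = 4.0e-04). The EG 2is call was lost without EG 2is line 2 (adjusted p = 0.0601) and with male lines alone (−0.57, adjusted p = 0.102). Within batch 1 the ES difference was −1.34 and within batch 2 it was −0.54, both called.

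Slc2a3 encodes GLUT3, a transporter with high affinity for glucose. Its levels were 11.48 to 12.00 in EG FCS, 11.89 to 12.11 in EG 2is, 11.73 to 12.06 in EG 2i, 11.62 to 11.97 in ES FCS and 11.94 to 12.30 in ES 2i. The groups overlapped in each culture comparison. Only ES 2i passed the test, 1.27-fold higher than ES FCS (log2 0.34, SE 0.11, adjusted p = 0.0182). That call was lost with adjusted p from 0.0522 to 0.0667 without ES FCS line 2, ES FCS line 5 or ES 2i line 4, and within batch 1 (0.18, adjusted p = 0.600), and held within batch 2 (0.45, adjusted p = 0.0163). In EG 2i and EG 2is the differences were 0.20 (adjusted p = 0.284) and 0.27 (adjusted p = 0.120). The latter was called after renewed quantile normalization (0.33, adjusted p = 0.0455) and without EG FCS line 4 (0.35, adjusted p = 0.0435).

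Hk1 and Hk2 encode the hexokinases of most tissues, of which Hk2 is the form more often induced. Hk2 was at 9.93 to 10.21 in EG FCS, 9.62 to 10.33 in EG 2is and 9.56 to 9.86 in EG 2i. All EG 2i lines lay below all EG FCS lines, but the fitted difference of −0.30 was not called (adjusted p = 0.136). It was called without the batch and sex terms (−0.42, adjusted p = 0.0491) and with only those groups in the fit (adjusted p = 0.0324). ES lines ranged from 9.63 to 10.24 in FCS and from 9.74 to 10.44 in 2i, with a difference of −0.02 (adjusted p = 0.943).

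Hk1 depended on the probe set. The array has 2 probe sets with Hk1 as sole symbol, and they correlated at 0.10 over the 22 arrays. The one with the highest mean (10414661), which represents the gene in the counts above, is annotated with a single old record and no RefSeq transcript. The array also has 16 probe sets annotated with both Rpl17 and Hk1. The highest-mean probe set moved by −0.07 in EG 2i, 0.18 in EG 2is and 0.02 in ES 2i and was called in none (adjusted p = 0.692, 0.199 and 0.916). The other (10369541), annotated with RefSeq transcripts of Hk1, was used after the values had been seen. On it EG FCS lines had 6.97, 6.93, 7.52 and 7.40, EG 2is lines 8.57, 8.42, 8.05 and 8.05, and EG 2i lines 7.97, 7.85, 7.67 and 8.14. ES lines had 7.59, 7.23, 7.65, 7.04 and 7.12 in FCS and 8.32, 8.45, 8.26, 8.57 and 8.42 in 2i. All 13 lines in 2i or 2is lay above all 9 FCS lines. The rises were 1.70-fold (log2 0.76, SE 0.17, adjusted p = 0.00202), 2.14-fold (1.10, SE 0.16, adjusted p = 3.7e-05) and 2.11-fold (1.08, SE 0.14, adjusted p = 8.1e-06) in EG 2i, EG 2is and ES 2i. With RefSeq probe sets 5, 5 and 7 of the 10 genes were called in the 3 comparisons, beside 24.5%, 26.3% and 32.4% of the 19242 genes tested that way.

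Pfkl and Pfkp encode the liver and platelet forms of phosphofructokinase, and they changed in opposite directions. Pfkl was at 10.04, 10.19, 9.95 and 9.97 in EG FCS, 9.76, 8.87, 8.43 and 8.73 in EG 2is and 8.32, 8.36, 8.19 and 9.36 in EG 2i. ES lines had 10.02, 10.44, 9.91, 9.86 and 10.04 in FCS and 7.75, 8.96, 9.22, 8.92 and 9.04 in 2i. The FCS lines were tightly grouped and the 2i lines widely spread, with SDs of 0.11 and 0.23 in EG FCS and ES FCS and of 0.54 to 0.59 in the other 3 groups, yet no 2i line reached an FCS line of its own cell type. Pfkl was 2.38-fold lower in EG 2i (log2 −1.25, SE 0.26, adjusted p = 0.00164), 1.97-fold lower in EG 2is (−0.98, SE 0.25, adjusted p = 0.00713) and 2.42-fold lower in ES 2i (−1.28, SE 0.23, adjusted p = 1.9e-04). The ES difference was −1.88 within batch 1 and −0.88 within batch 2, both called. With male lines alone, of which EG 2i has 1, the EG 2i differences were −0.68 for Pfkl (adjusted p = 0.145) and −0.52 for Slc2a1 (adjusted p = 0.277), and neither was called.

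Pfkp was at 8.44, 8.88, 8.63 and 8.27 in EG FCS, 10.52, 10.14, 10.11 and 10.17 in EG 2is and 9.81, 9.97, 9.87 and 10.34 in EG 2i. ES lines had 9.25, 9.13, 9.41, 9.34 and 9.19 in FCS and 9.77, 9.83, 10.34, 9.51 and 9.93 in 2i. EG FCS lines were the lowest of all groups, ES FCS lines came next, and every 2i or 2is line lay above both. It rose 2.74-fold in EG 2i (log2 1.45, SE 0.16, adjusted p = 3.4e-06), 3.22-fold in EG 2is (1.69, SE 0.16, adjusted p = 2.8e-07) and 1.53-fold in ES 2i (0.61, SE 0.14, adjusted p = 0.00196). Within batches the ES rise was 0.61 and 0.62. Pfkp kept its calls in these 3 comparisons in all 104 refits under other settings. The log2 difference of Pfkp minus Pfkl, whose zero has no meaning because the probes differ, was −1.70 to −1.31 in EG FCS and −1.31 to −0.50 in ES FCS. It was 0.98 to 1.69 in EG 2i, 0.77 to 1.68 in EG 2is and 0.58 to 2.02 in ES 2i. Every line in 2i or 2is thus lay further toward Pfkp than every FCS line.

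**Figure D2:**
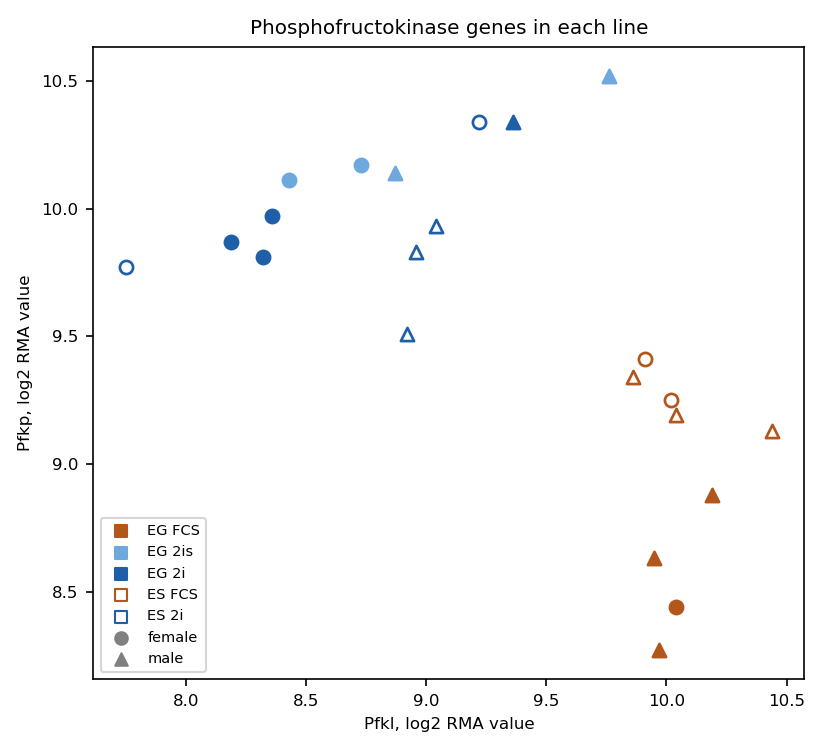
Level of Pfkp (vertical axis, log2 RMA value) against that of Pfkl (horizontal axis, log2 RMA value) in each of the 22 lines, with culture by colour, cell type by filled (EG) or open (ES) symbols and sex by shape. FCS lines lie at the lower right and lines in 2i or 2is at the upper left, with Pfkl spread from 7.75 to 9.76 among the latter.

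Aldoa, Pgk1 and Ldha encode aldolase, phosphoglycerate kinase and the A subunit of lactate dehydrogenase. Aldoa ranged from 11.84 to 12.42 over all lines and its groups overlapped. Its differences of −0.10, 0.02 and −0.09 in EG 2i, EG 2is and ES 2i had adjusted p of 0.568, 0.931 and 0.558, and it was called in none of 104 refits. X-linked Pgk1 was at 11.43, 11.53, 11.55, 11.39 and 11.38 in ES FCS and 10.66, 11.08, 11.39, 10.69 and 10.93 in ES 2i. ES 2i line 3 lay within the FCS range, and the other 4 lines lay below it. The ES difference was called, 1.42-fold lower (log2 −0.51, SE 0.13, adjusted p = 0.00456), with −0.61 within batch 1 and −0.43 within batch 2. Pgk1 was at 11.15 to 11.40 in EG FCS, 10.61 to 11.17 in EG 2i and 10.89 to 11.40 in EG 2is. The EG differences were −0.41 (adjusted p = 0.0553) and −0.23 (adjusted p = 0.295). The first was called under 4 other settings and without any 1 of 5 lines. It ran from −0.44 to −0.12 over the other settings. Without 1 line at a time it ran from −0.55 to −0.33, with limma adjusted p from 0.0248 to 0.176. A pair of further Pgk1 probe sets with identical values had means of 11.44 in ES FCS and 10.81 in ES 2i.

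Ldha was at 11.43 to 11.58 in ES FCS and 10.54 to 11.42 in ES 2i. The groups did not overlap, but the upper 4 ES 2i lines lay at 11.30 to 11.42, and the difference of −0.32 was not called (adjusted p = 0.130). With a sex term in each culture, a setting chosen after the data were seen, it was called (−0.37, adjusted p = 0.0361). EG lines had 11.20 to 11.70 in FCS, 11.02 to 11.72 in 2is and 10.74 to 11.47 in 2i, with differences of −0.30 (adjusted p = 0.256) for 2i and −0.16 (adjusted p = 0.576) for 2is.

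Pdk1 had the largest difference of the 10 genes in each culture comparison. EG FCS lines had 9.88, 10.37, 10.19 and 9.71, EG 2is lines 7.89, 7.53, 6.76 and 7.07, and EG 2i lines 7.13, 6.64, 6.62 and 7.51. ES lines had 9.98, 10.15, 9.31, 9.76 and 9.76 in FCS and 6.69, 7.15, 7.48, 7.91 and 8.28 in 2i. The lowest of the 9 FCS lines was at 9.31 and the highest of the 13 lines in 2i or 2is at 8.28. The lowest of these 13 lines was at 6.62, above the background of 4.88. Pdk1 was 6.95-fold lower in EG 2i (log2 −2.80, SE 0.25, adjusted p = 2.2e-07), 6.03-fold lower in EG 2is (−2.59, SE 0.24, adjusted p = 2.3e-07) and 4.89-fold lower in ES 2i (−2.29, SE 0.21, adjusted p = 1.4e-07). The ES difference was −3.15 within batch 1 and −1.72 within batch 2. Its call held in all 104 refits of the 3 comparisons.

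**Figure D3:**
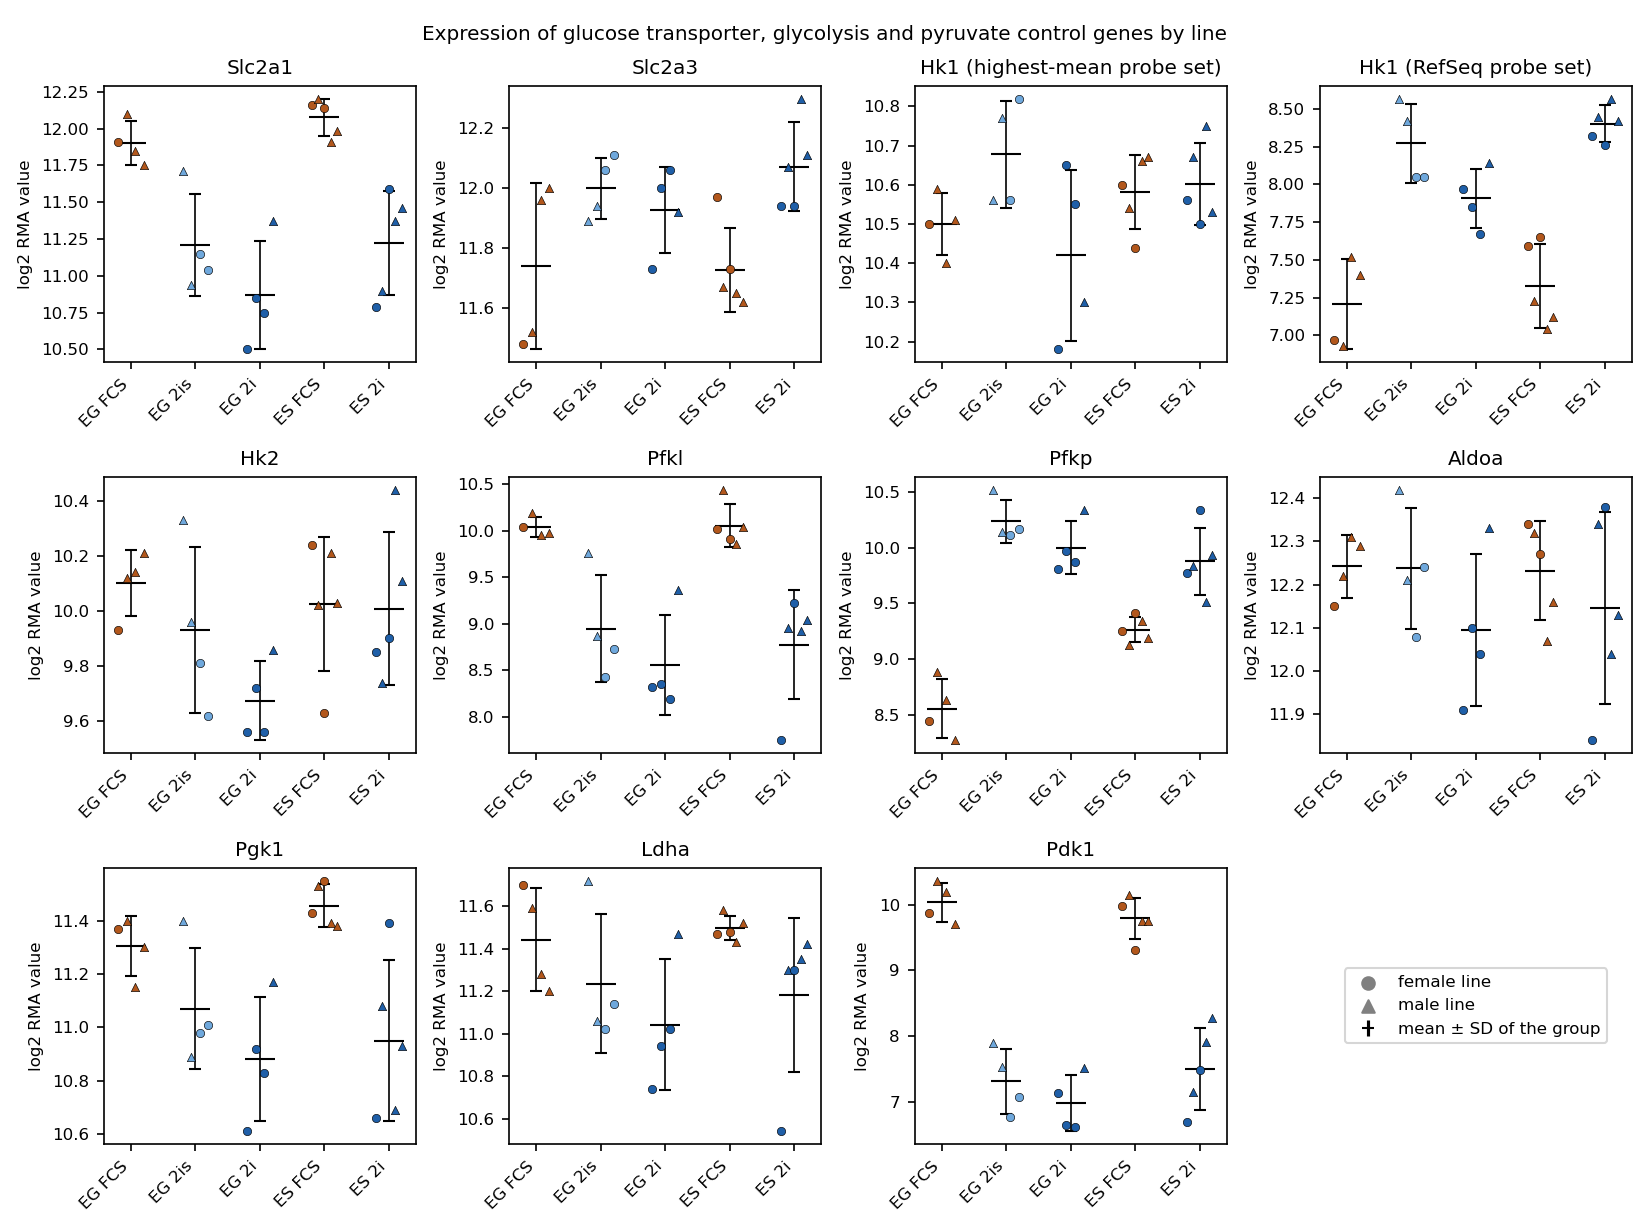
Level (vertical axes, log2 RMA value) of each gene in every line of the 5 groups, with circles for female and triangles for male lines and bars for the group mean ± SD. Pdk1, Pfkl, Slc2a1, Pfkp and the RefSeq probe set of Hk1 separate FCS lines from 2i lines of the same cell type, and Aldoa does not.

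Both routes into 2i were compared for EG lines. Of the 10 genes 0 were called between EG 2i and EG 2is, where limma called 0% of all genes. At an unadjusted p under 0.05 there was 1, Hk1 on its highest-mean probe set, and 2116 of all genes. Pdk1 differed by −0.21 (95% interval −0.71 to 0.29), Pfkp by −0.23 (−0.57 to 0.10) Slc2a1 by −0.31 (−0.70 to 0.07) and Pfkl by −0.27 (−0.81 to 0.26). These intervals leave room for differences of up to 0.81, so a lack of calls does not show that both routes gave the same level.

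Cell origin was compared within each culture. In FCS limma called 0 of the 10 genes between EG and ES lines, beside 0.0100% of all genes, and 1 had an unadjusted p under 0.05. That gene was Pfkp, at 8.56 ± 0.26 (SD, n = 4) in EG FCS and 9.26 ± 0.11 (SD, n = 5) in ES FCS, with groups apart and a fitted difference of −0.64 (SE 0.17, limma adjusted p = 0.699). Between EG 2i and ES 2i limma called 0 of the 10, beside 3.72% of all genes, and 0 had an unadjusted p under 0.05 on their highest-mean probe sets. For Hk1 this depended on the probe set. On its RefSeq probe set, chosen after the values were seen, the EG 2i lines lay below all ES 2i lines, with a fitted difference of −0.50 (limma adjusted p = 0.113). With the mean of its probe sets it was called (−0.34, adjusted p = 0.0391). Between EG 2is and ES 2i it called 0, beside 0.0451% of all genes, and 1, Pfkp, had an unadjusted p under 0.05 (0.44, adjusted p = 0.423). EG and ES differences rest on a batch term that only ES lines inform.

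Whether the culture difference itself was unlike in EG and ES lines was tested as an interaction. Limma called 0 of the 10 genes, beside 1.44% of all genes, with 1 at an unadjusted p under 0.05. Pfkp rose by 0.84 more in EG than in ES lines (95% interval 0.39 to 1.29, adjusted p = 0.0570). It was called after renewed quantile normalization (adjusted p = 0.0476), without batch and sex terms (0.0388), among genes above the median gene (0.0449), and without EG FCS line 2, EG 2i line 1 or ES 2i line 3 (0.0158 to 0.0496). For Pdk1 the difference of the responses was −0.51 (95% interval −1.19 to 0.18, adjusted p = 0.483), and within batch 1 it had the opposite sign (0.35, adjusted p = 0.752).

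Some single lines were the highest or the lowest of their group for many of the 10 genes. EG 2i line 4, the male line of its group, was the highest of its group for 8 of the 10 genes, and EG 2is line 1, also male, for 8 of 10. EG 2i line 1 was the lowest of its group for 7 of 10 and ES 2i line 1, both of them female, for 6 of 10. ES 2i line 3, also female, was the highest of its group for 5 of 10. EG FCS line 2, a male line, was the highest of its group for 6 of 10. EG 2is line 3, a female line, was the lowest of its group for 5 of 10. The genes share these arrays, so the counts describe lines and were not tested.

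Female and male lines were compared within culture, since the EG groups held unequal numbers of each. In the 2i and 2is lines (7 female, 6 male) 3 of the 10 genes were called, all lower in female lines, beside 5.17% of all genes. Female lines had a mean Pdk1 level of 6.91 ± 0.32 (SD, n = 7), from 6.62 to 7.48. Male lines had 7.71 ± 0.40 (SD, n = 6), from 7.15 to 8.28. Its fitted difference was −0.72 (SE 0.19, limma adjusted p = 0.0303). Pfkl was at 8.43 ± 0.46 (SD, n = 7) and 9.15 ± 0.34 (SD, n = 6), a fitted difference of −0.71 (SE 0.19, limma adjusted p = 0.0376). Ldha was at 10.96 ± 0.25 (SD, n = 7) and 11.39 ± 0.22 (SD, n = 6), a fitted difference of −0.42 (SE 0.12, limma adjusted p = 0.0487). Female and male lines overlapped for all 3 genes. These calls are close to the threshold: the number of genes called without 1 line ran from 0 to 4. It was 0 without EG 2is line 1, 3 or 4, EG 2i line 4, or ES 2i line 1 or 5, and 1 without EG 2i line 2 or 3 or ES 2i line 4. Without EG 2is line 1, EG 2i line 4 and ES 2i line 1 in turn, Pfkl had adjusted p of 0.104, 0.165 and 0.101 Pdk1 0.0814, 0.0890 and 0.0748 and Ldha 0.129, 0.178 and 0.128. Of the 22 fits without 1 line, Ldha lost its call in 16, Pfkl in 9 and Pdk1 in 7. The Ldha call was also lost within batch 1 (−0.50, adjusted p = 0.0835) and with arrays centred on their median (−0.39, adjusted p = 0.0637).

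In the FCS lines (3 female, 6 male) limma called 0 of the 10 genes by sex, beside 0.0251% of all genes, and 0 had an unadjusted p under 0.05. The differences were −0.21 for Pdk1, −0.08 for Pfkl and 0.13 for Ldha. The test of whether the sex difference was unlike in both cultures, added after the data were seen, called 0 of the 10 genes and 0% of all genes. At an unadjusted p under 0.05 there were 2, Ldha (−0.55, limma adjusted p = 0.683) and Pfkl (−0.64, limma adjusted p = 0.789). Pgk1, although X-linked, differed by −0.10 between female and male 2i lines (limma adjusted p = 0.694).

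**Figure D4:**
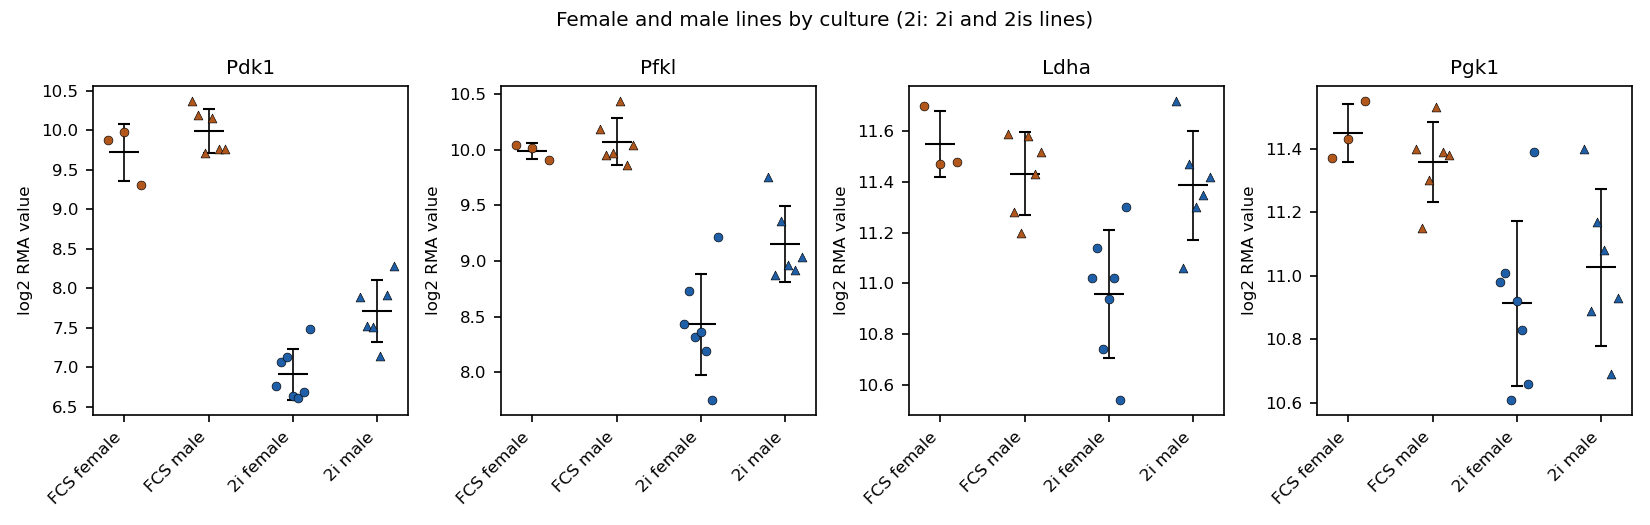
Level (vertical axes, log2 RMA value) of Pdk1, Pfkl, Ldha and Pgk1 in female and male lines of FCS culture and of 2i or 2is culture, with bars for the mean ± SD. Female lines in 2i average 6.91 for Pdk1 and male lines 7.71, with overlapping ranges.

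The remaining genes of glucose metabolism are given by list. Each count is to be read beside the shares of all genes called higher and lower, which were 11.4% and 12.5% in EG 2i, 12.7% and 12.9% in EG 2is and 16.6% and 14.9% in ES 2i. None of these lists was tested as a whole. Of 16 measured enzyme genes of the glycolytic steps 0 were called higher and 5 lower in EG 2i, 1 and 5 in EG 2is, and 3 and 5 in ES 2i, with medians of −0.16, −0.10 and −0.04. The 3 of 16 higher in ES 2i are close to the 16.6% of all genes. Pkm, the pyruvate kinase of most tissues, was lower by −0.48 in EG 2i (adjusted p = 0.00211), −0.38 in EG 2is (0.00852) and −0.46 in ES 2i (4.7e-04). Pgam1, a phosphoglycerate mutase, was lower by −0.39, −0.31 and −0.22, and the enolase gene Eno3 by −0.92, −0.85 and −0.64, all called. Pgam2, the muscle paralog of Pgam1, was called in EG 2i alone (−0.43, adjusted p = 0.00751). Its EG 2i mean of 5.06 lay near the background of 4.88. Tpi1, triosephosphate isomerase, was lower in EG 2i (−0.46, adjusted p = 0.0177) and ES 2i (−0.33, adjusted p = 0.0344) and was not called in EG 2is (−0.35, adjusted p = 0.0589). Tpi1 and Aldoc, another aldolase, were also lower in female than in male 2i lines, by −0.49 (adjusted p = 0.00723) and −0.88 (adjusted p = 0.0220). Pfkm, the muscle phosphofructokinase, was called lower in EG 2i than in ES 2i (−0.60, adjusted p = 0.0279), and its change from FCS was −0.29 in EG 2i (adjusted p = 0.142) and 0.40 in ES 2i (adjusted p = 0.0117). Gapdh, Eno1 and Gpi1 had no probe set with them as sole symbol and were not analysed here.

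Among 11 other glucose and lactate transporters 1 was called higher and 2 lower in EG 2i, 0 and 1 in EG 2is, and 1 and 2 in ES 2i. Slc16a3, the lactate exporter MCT4, was 2.37-fold lower in EG 2i (log2 −1.24, adjusted p = 0.00861), 2.10-fold lower in EG 2is (−1.07, adjusted p = 0.0167) and 2.93-fold lower in ES 2i (−1.55, adjusted p = 2.4e-04). It was also lower in female than in male 2i lines (−0.89, adjusted p = 0.0298). Its levels were 8.15 to 8.58 in EG FCS, 6.46 to 8.42 in EG 2is and 6.41 to 7.92 in EG 2i. EG 2is and EG FCS lines thus overlapped. Slc16a1, the lactate transporter MCT1, was lower in EG 2i (−0.35, adjusted p = 0.0287) and ES 2i (−0.29, adjusted p = 0.0253). Slc2a8 was higher in ES 2i (0.45, adjusted p = 0.0175) and Slc2a9 in EG 2i (0.20, adjusted p = 0.0400). The Slc2a9 means of 5.21 in EG FCS and 5.37 in EG 2i lay near the background of 4.88.

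Fructose 2,6-bisphosphate activates phosphofructokinase, and its level is set by the Pfkfb enzymes and lowered by Tigar. Of 4 measured genes 1 was called higher and 0 lower in EG 2i, 2 and 1 in EG 2is, and 2 and 1 in ES 2i. Pfkfb3, the form with the highest ratio of kinase to phosphatase activity, was 2.18-fold lower in ES 2i (log2 −1.12, adjusted p = 2.6e-05), lower in EG 2is (−0.52, adjusted p = 0.0470) and not called in EG 2i (−0.51, adjusted p = 0.0597). Tigar was higher in ES 2i (0.68, adjusted p = 3.0e-05), and the EG differences of 0.28 and 0.31 were not called. Pfkfb2 was higher in EG 2is (0.50, adjusted p = 0.0155) and ES 2i (0.56, adjusted p = 0.00191), and Pfkfb4 in EG 2i (0.28, adjusted p = 0.0204) and EG 2is (0.35, adjusted p = 0.00319).

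Around pyruvate dehydrogenase, 12 genes were measured. In EG 2i 2 of them rose and 2 fell, with 2 and 3 in EG 2is and 4 and 3 in ES 2i, beside 11.4% and 12.5%, 12.7% and 12.9%, and 16.6% and 14.9% of all genes. The phosphatases that undo the work of the kinases changed in opposite directions. Pdp1 was lower by −0.52 in EG 2i (adjusted p = 0.00555), −0.77 in EG 2is (1.1e-04) and −1.03 in ES 2i (7.7e-07), and Pdp2 was higher by 0.94 (0.00131), 1.02 (3.8e-04) and 1.29 (6.4e-06), with groups apart each time. The Pdp2 means of 4.82 in EG FCS and 4.68 in ES FCS were below the background of 4.88, so its differences are from a level not above background. Of the other kinases, Pdk2 was higher in ES 2i (0.53, adjusted p = 4.0e-04) and the X-linked Pdk3 was not called in any culture comparison. Pdk4, named after its values were seen, was lower by −0.93, −0.76 and −0.86, all called. Mpc1, a subunit of the mitochondrial pyruvate carrier, was higher in EG 2is (0.64, adjusted p = 0.0151) and ES 2i (0.77, adjusted p = 0.00106). The subunit genes Pdha1, X-linked, and Pdhb were not called for culture, and Pdha1 and Pdk3 were higher in female than in male 2i lines (0.40, adjusted p = 0.0197, and 0.63, adjusted p = 0.00620). Other subunit genes, added after their values were seen, were Dlat, Dld and Pdhx. Dlat was at 8.51 to 8.63 in EG FCS and 8.70 to 8.90 in EG 2i, with ES means of 8.57 in FCS and 8.76 in 2i. Means in EG FCS and EG 2i were 9.08 and 8.94 for Dld, and 6.84 and 6.81 for Pdhx.

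Genes of the opposite and branching routes included several rises. Of 6 gluconeogenesis genes 3, 2 and 2 were called higher in EG 2i, EG 2is and ES 2i, and 0 lower. Pck2, the mitochondrial enzyme that makes phosphoenolpyruvate, rose 3.03-fold (log2 1.60, adjusted p = 3.7e-05), 4.25-fold (2.09, adjusted p = 9.1e-07) and 3.46-fold (1.79, adjusted p = 8.1e-07). Fbp2, a fructose bisphosphatase, rose 2.47-fold, 2.56-fold and 1.77-fold. Its means of 4.96 in EG FCS and 5.00 in ES FCS lay near the background of 4.88. Fbp1 was called in EG 2i (0.34, adjusted p = 0.00867) at a mean of 4.77, below background. Of 6 pentose phosphate genes 2 were called higher and 1 lower in EG 2i, and 1 and 0 in EG 2is and in ES 2i. Pgd, which makes NADPH in that pathway, rose 1.47-fold (0.56, adjusted p = 1.2e-05), 1.61-fold (0.69, adjusted p = 4.9e-07) and 1.75-fold (0.81, adjusted p = 8.9e-09). Pgls was lower in EG 2i (−0.44, adjusted p = 0.00537) and Taldo1 higher there (0.25, adjusted p = 0.0491). Pgd and Tkt, transketolase, were lower in EG 2i than in ES 2i (−0.28, adjusted p = 0.0414, and −0.42, adjusted p = 0.0284).

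Hypoxia-inducible factors are known activators of Slc2a1, Ldha, Pgk1 and Pdk1, and their pathway was read from 9 genes. Of these 1 was called higher and 4 lower in EG 2i and in EG 2is, and 1 and 5 in ES 2i, with medians of −0.35, −0.21 and −0.18. Egln3, a prolyl hydroxylase that marks the factors for destruction and is itself their target, was 3.51-fold (log2 −1.81), 3.81-fold (−1.93) and 5.01-fold (−2.33) lower, with adjusted p of 1.3e-04, 3.7e-05 and 7.2e-07. Hif1an, an inhibitor of the factors, was lower by −0.38, −0.45 and −0.44 and Hif3a by −0.38, −0.21 and −0.18. Vhl, which directs the factors to degradation, was higher by 0.31, 0.44 and 0.66, all called. The transcript of Hif1a itself, named for its role, differed by −0.16, 0.02 and −0.08 and was not called (adjusted p = 0.248, 0.904 and 0.499). Arnt, the partner subunit, was called between EG 2i and ES 2i (−0.31, adjusted p = 0.0446).

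Hypoxia target genes outside glycolysis were mixed. Of 14 measured, which include Pfkfb3, Pfkfb4 and Slc16a3 from the lists above, 3 were called higher and 3 lower in EG 2i, 3 and 5 in EG 2is, and 1 and 6 in ES 2i, with medians of −0.14, 0.03 and −0.29. Bnip3, a mitochondrial protein of mitophagy, was 3.67-fold, 3.30-fold and 4.46-fold lower (log2 −1.87, −1.72 and −2.16, adjusted p = 0.00530, 0.00665 and 2.6e-04). Adm, the peptide hormone adrenomedullin, was lower by −0.91, −0.95 and −0.96, all called, and its mean of 4.33 to 4.48 in 2i groups was below background. Vegfa, the growth factor of blood vessels, went the other way and rose 2.36-fold, 2.58-fold and 1.71-fold (adjusted p = 0.00111, 2.7e-04 and 0.00769).

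**Figure D5:**
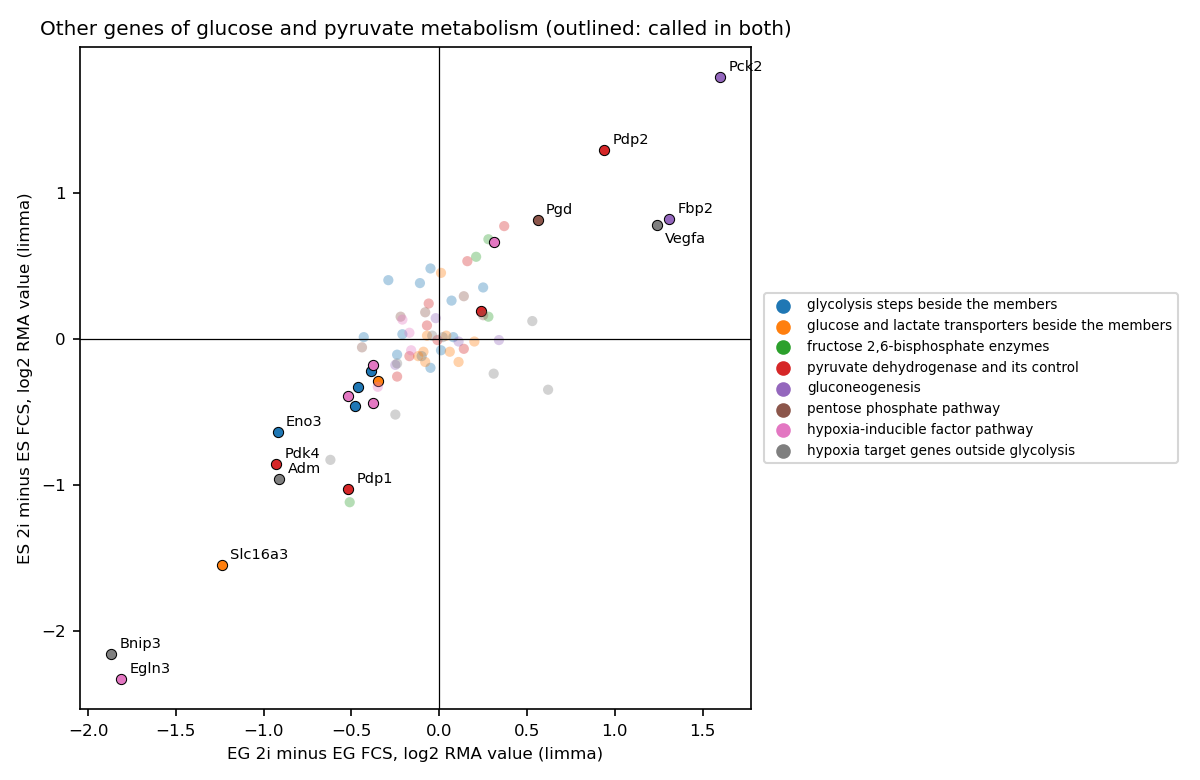
Fitted log2 difference of ES 2i from ES FCS (vertical axis, limma) against that of EG 2i from EG FCS (horizontal axis, limma) for the other measured genes of glucose and pyruvate metabolism and of the hypoxia pathway, with colour by list and an outline where a gene was called in both. Pck2 (1.60 and 1.79) lies at the upper right, and Egln3 (−1.81 and −2.33) and Bnip3 (−1.87 and −2.16) at the lower left.

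The genes most like 3 of the 10 in pattern were found by Pearson's r over all 22 arrays, as a description, since the points share cultures and arrays. For Pdk1 they were Sinhcaf (0.98), Enox1 (0.98) and Adam23 (0.97). On deviations from group means, which remove the culture difference, they were Prelid2, Sdf2 and Aire (0.86 each). For Pfkp they were Fads2 (0.93), Psat1 (0.92) and Scarb1 (0.92), and on deviations Krtap16-3 (0.81), Omt2b (0.81) and Olfr1472 (0.79). For Slc2a3 they were Grik3 (0.91), Ulk1 (0.91) and Cast (0.90), and on deviations Grik3 (0.93), Ptbp3 (0.89) and Ulk1 (0.88). Grik3 and Ulk1 are on both lists. Slc2a3 differed by only 0.20 to 0.34 between cultures, so taking out group means changes its pattern little, and the shared names are no separate check.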

How the data were processed

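The 10 genes and all gene lists were chosen with earlier results of these data known. The authors deposited log2 values from RMA, with 1 value for each probe set on each array. Affymetrix Expression Console was used with RMA and limma, per the submitters' processing notes, and their versions are not given in the sources used here. The RMA method subtracts background, equalises the distributions of arrays and summarises probes, which can shrink global shifts and differences near background. Of 28853 probe sets 21789 had 1 gene symbol, 1621 several and 5443 none, and 21698 of the first matched a GRCm38.p6 gene table by Entrez ID. Where a gene had several, the probe set of highest mean was kept and 1851 others were left out.

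All 22 arrays were fitted with limma 3.58.1 in R 4.3.3 (lmFit, eBayes), with terms for group, labelled batch (16 and 6 arrays, the second all ES) and labelled sex. The sex comparisons had a sex term in each culture. Every adjusted p is limma's, two-sided, with Benjamini-Hochberg adjustment over 19938 genes at a threshold of 0.05. The fit was tested on simulated data. The number of arrays limits the precision. No arrays were identical (0 pairs). The main fit treated samples as unpaired, since the labels do not say that replicate numbers mark the same line. Deviations of same-numbered lines correlated at −0.01 to 0.24 between ES FCS and ES 2i, and at −0.56 to 0.32 between EG groups. Same-numbered ES samples share labelled sex and batch, and these correlations cannot show whether they are the same line.

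Beside the 10 genes, the text names for each list up to 4 genes with the smallest adjusted p among those called in EG 2i against EG FCS or ES 2i against ES FCS, and up to 2 called in any other comparison, and for Pdk1, Slc2a3 and Pfkp the 3 genes most like each in levels and in deviations. Lists were glycolysis steps, transporters, fructose 2,6-bisphosphate enzymes, pyruvate dehydrogenase control, gluconeogenesis, pentose phosphate pathway, hypoxia-inducible factor pathway, hypoxia targets, pluripotency, feeder fibroblast, primitive endoderm and housekeeping genes. Of the 8 pluripotency markers 2 were called higher and 1 lower in each EG comparison, and 1 and 1 in ES 2i. Of the 12 primitive endoderm markers 0 were called higher and 5 lower in EG 2i, 0 and 7 in EG 2is, and 1 and 3 in ES 2i. Of the 7 housekeeping genes 0 and 2, 0 and 1, and 2 and 0 were. Of all genes 11.4% were called higher and 12.5% lower in EG 2i. These shares were 12.7% and 12.9% in EG 2is, and 16.6% and 14.9% in ES 2i. Motifs were searched with Python 3.11.15 and pandas, in RefSeq promoter windows of GRCm38.p6. Alternatives concerned normalization, covariates, filter, probe set, prior, samples, batch, sex, replicate block and single lines.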

Additional observations from a re-analysis of the deposited data

Results flagged for a closer look

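In 5 of 50 combinations of gene and group, 1 line lay far from the others by Dixon's criterion, which chance alone meets in about 1 in 20 groups. Pfkl was at 9.36 in EG 2i line 4, against 8.19 to 8.36 in the other lines, and at 7.75 in ES 2i line 1, against 8.92 to 9.22. Ldha was at 11.72 in EG 2is line 1, against 11.02 to 11.14, and at 10.54 in ES 2i line 1, against 11.30 to 11.42. Pfkp was at 10.52 in EG 2is line 1, against 10.11 to 10.17. All 5 values belong to 3 lines, of which EG 2i line 4 and EG 2is line 1 are male and ES 2i line 1 is female. The cause was not tested.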

How the results depend on the processing

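Each of the 10 genes was tested again under other settings in all 11 comparisons. Of 3700 such values 3624 stayed on their side of the threshold, 27 gained a call with the same sign, 47 lost one, and 2 were called with the opposite sign. Of the 3624, which include genes called in neither fit, 183 had the opposite sign, among them Ldha for EG 2i versus EG FCS in male lines (0.12 in place of −0.30) and Pdk1 for EG FCS versus ES FCS in batch 1 (−0.16 in place of 0.27). The 2 called with the opposite sign were Hk1 for EG 2i versus EG FCS, at 0.35 with the mean of all probe sets of a gene and 0.76 with RefSeq probe sets, the latter chosen after seeing the data. The number of the 10 genes called changed by over 1.5 times as follows. For the difference of responses it was 1 in place of 0 after renewed quantile normalization, without batch and sex terms and among genes above the median gene. It was 1 for EG 2i versus ES 2i with the mean of all probe sets, 2 for EG 2i versus EG FCS in male lines, and for sex in 2i lines 1 with only the groups compared and 0 with the replicate block. Counts over all genes moved too. Without batch and sex terms EG FCS versus ES FCS gave 4, EG 2i versus ES 2i gave 1957, EG 2is versus ES 2i gave 0 and the difference of responses gave 438. Among genes above the median gene EG FCS versus ES FCS gave 0. With only the groups compared the counts were 1 for EG 2i versus EG 2is, 1 for EG FCS versus ES FCS, 15 for EG 2i versus ES 2i, 0 for EG 2is versus ES 2i, and 2 and 484 for sex in FCS and in 2i lines. In batch 1 they were 2460 for ES 2i versus ES FCS, 1 for EG FCS versus ES FCS, 201 for EG 2i versus ES 2i, 0 for the difference of responses, and 2 and 207 for sex in FCS and in 2i lines. In male lines they were 2282 for EG 2i versus EG FCS, 4 for EG FCS versus ES FCS, 7 for EG 2i versus ES 2i, 70 for EG 2is versus ES 2i and 33 for the difference of responses. With the replicate block they were 471 for EG 2i versus ES 2i, 108 for the difference of responses, and 18 and 656 for sex in FCS and in 2i lines. The block used the label number of each line, and 1 of 5 ES lines correlated best with its own number.

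Leaving out 1 line at a time gave 0 to 1 of the 10 genes for the difference of responses and 0 to 4 for sex in 2i lines. Over all genes it gave 110 to 390 for the difference of responses, 301 to 872 for EG 2i versus ES 2i, 1 to 43 for EG 2is versus ES 2i, 2 to 4 for EG FCS versus ES FCS, 586 to 1804 for sex in 2i lines, 2 to 11 for sex in FCS lines and 0 to 2 for the difference of the sex terms. Where a group kept 1 line, it was assumed to vary like the other groups. Of 832 counts over the pathway lists 75 moved by over 1.5 times. The causes were not tested beyond fewer arrays or genes in the fit.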
